A study of Mus musculus with 12 samples.

Results

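The effect of a diet without branched-chain amino acids (BCAA) was examined in mouse hearts under pressure overload. The comparison rests on the 6 of 12 samples that had transverse aortic constriction (TAC), surgery that narrows the aorta so that the left ventricle pumps against a higher pressure. All samples were whole-tissue polyA RNA from hearts of male C57Bl/6J mice, 12 weeks old, taken 2 weeks after surgery. In the BCAA-free TAC group (n = 3) the food held no leucine, isoleucine or valine; in the control diet TAC group (n = 3) it held all essential amino acids, BCAA among them, at the level of standard chow. Both diets began 4 days before surgery and went on until the hearts were taken. BCAA-free sham (n = 3) and control diet sham (n = 3) hearts of the same strain, sex and age, operated on without constriction, are used where the diet effect after TAC is set against that after sham. All 15936 genes of the table of the 6 TAC samples were members, and the 15872 with a mean normalized read count of at least 10 were tested. Whether hearts were pooled, which part of the heart was taken and at what time of day are not stated in the labels. The spread that the p-values rest on is therefore that between these libraries and may be technical.

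Leucine, isoleucine and valine cannot be made by mammals. In the heart they are first transaminated by the mitochondrial enzyme BCAT2 and then oxidized by the branched-chain ketoacid dehydrogenase complex, which the kinase BCKDK switches off and the phosphatase PPM1K switches on; leucine also signals sufficiency to the growth kinase mTORC1, and lack of an amino acid is sensed by GCN2, which raises translation of ATF4. A heart under pressure overload is known to grow, to raise a set of fetal genes such as Acta1, Nppa, Nppb and Myh7, to deposit collagen and to lower genes of fatty acid and BCAA oxidation. Because whole tissue was measured, fewer cells of a type and less RNA per cell cannot be told apart.

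Depth, as reads recovered from the normalized values, was 24861212 to 52065900 per TAC library. The first principal component of the 6 libraries held 65.3% of the variance and separated the diets, with scores of -40.8, -34.7 and -34.5 in BCAA-free TAC, against 19.5, 61.6 and 28.9 in control diet TAC. Replicate 2 of control diet TAC stands apart from its group; values without it are given for several single genes and beside each list median below that it moved by over 1.5 times in the comparison of diets after TAC. The libraries of the 2 diets also differed in how expression followed base composition. Spearman's correlation of a library's deviation from the gene mean with transcript GC content was 0.0727, 0.250 and 0.265 in BCAA-free TAC, against -0.241, -0.0941 and -0.296 in control diet TAC. With transcript length it was -0.256, -0.118 and -0.340 in BCAA-free TAC, against 0.248, 0.180 and 0.260 in control diet TAC. All 15 cardiomyocyte markers were above 0 in every library, in keeping with the heart label.

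After TAC the BCAA-free diet changed 5435 of 15872 genes (34.2%) at an adjusted p under 0.05 (limma): 2618 were higher (16.5%) and 2817 lower (17.7%) in BCAA-free TAC. These shares are the background for the gene lists below, and "called" means past this threshold. The median absolute log2 fold change of called genes was 0.56, and 344 higher and 696 lower genes changed at least 2-fold. The lowest and highest values of the diets did not overlap for 8060 (50.8%) of the genes tested. Genes called higher had a median transcript GC content of 53.5% and a median length of 2478 bases, and genes called lower 46.9% and 4498 bases. After removal of the trends over GC content and length from each library, 4709 genes were called, 2781 higher and 1928 lower, and 3712 of the 5435 were among them; the part of these trends in the result was not tested further. Scaling each library to its total alone lowered the median of all genes by 0.13 on the log2 scale and gave 1461 higher and 3800 lower. The count was 3369 to 3587 with any 1 BCAA-free TAC library left out, 5222 without control diet TAC replicate 2 and 3664 without replicate 3.

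**Figure D1:**
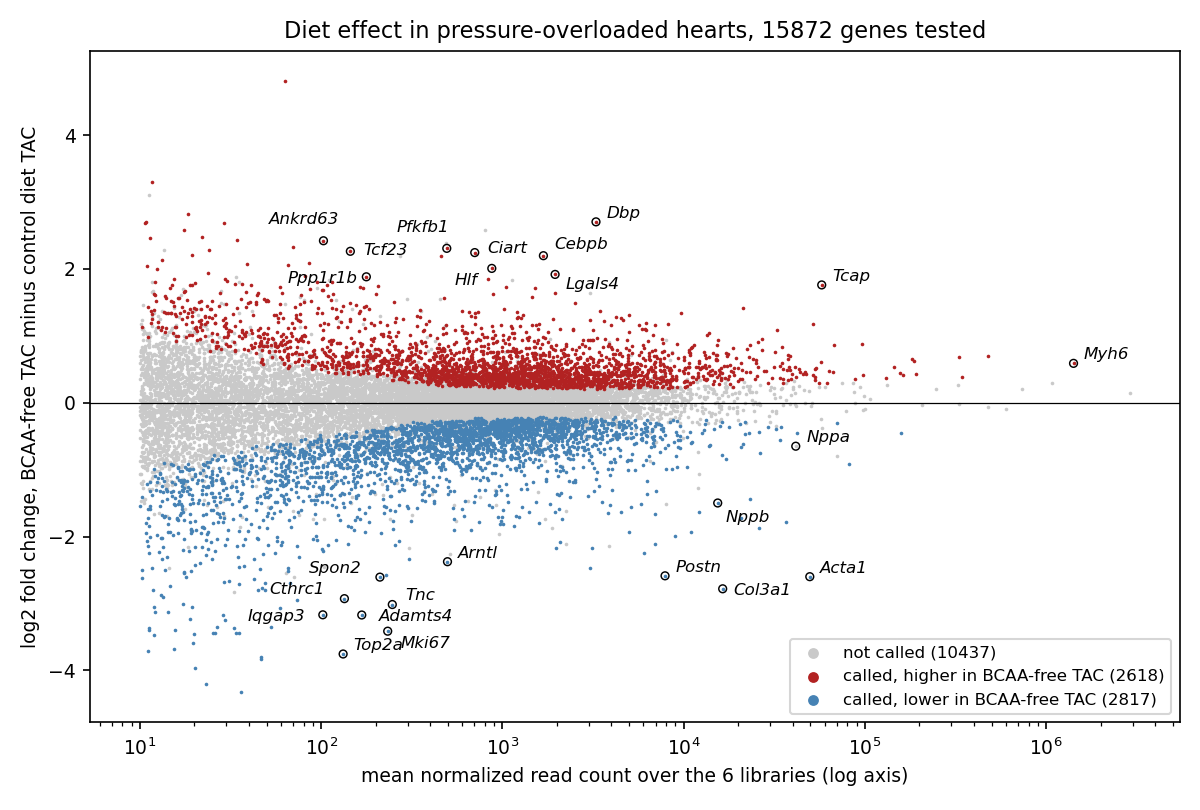
Log2 fold change (BCAA-free TAC minus control diet TAC, y axis) against mean normalized read count (x axis, log scale) for 15872 genes; red points were called higher in BCAA-free TAC and blue points lower. Among labelled genes the values run from Top2a at -3.76 to Dbp at 2.70.

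Called genes with a mean normalized read count of at least 100 over the 6 libraries were ranked by size of change. The 10 largest rises were led by Dbp, a clock output factor (2.70 ± 0.11, ± SE), followed by Ankrd63 (2.42), the glycolytic control gene Pfkfb1 (2.31), the transcription factor Tcf23 (2.26), Ciart (2.24), Cebpb (2.20), the plakin gene Ppl (2.20), Hlf (2.01), Lgals4 (1.92) and Ppp1r1b (1.88). The 10 largest falls were the proliferation genes Top2a (-3.76 ± 0.54), Mki67 (-3.41) and Iqgap3 (-3.17), the matrix protease Adamts4 (-3.17), the matrix genes Tnc (-3.02), Cthrc1 (-2.93), Col3a1 (-2.78), Spon2 (-2.61) and Postn (-2.59), and skeletal alpha-actin, Acta1 (-2.60). That the diets do not overlap was part of the rule that chose these 20 genes. So was the mean of at least 100, which some genes reached only through the diet where they were high. Group means in BCAA-free TAC and control diet TAC were 174 and 31.7 for Ankrd63, 17.6 and 187 for Iqgap3, and 17.4 and 247 for Top2a. For Cthrc1 they were 22.9 and 246, and without control diet TAC replicate 2 its log2 fold change was -1.99 (limma, adjusted p 0.018). The fold of Pfkfb1 rests in part on control diet TAC replicate 2, with normalized read counts of 962, 836 and 612 in BCAA-free TAC, against 292, 73.3 and 186 in control diet TAC; without that library its log2 fold change was 1.76 (adjusted p 0.0029).

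The load-response genes of cardiomyocytes moved unequally. Acta1, a fetal actin that rises with load, had normalized read counts of 14390, 12173 and 14565 in BCAA-free TAC, against 56711, 103140 and 97144 in control diet TAC. The groups were far apart, with a log2 fold change of -2.60 ± 0.22 (adjusted p 0.00059). Nppb, which encodes B-type natriuretic peptide, had 7646, 6741 and 9388 in BCAA-free TAC, against 16480, 30812 and 21480 in control diet TAC, with a log2 fold change of -1.50 ± 0.23 (adjusted p 0.0037). The other 2 of the classical fetal genes did not pass. Nppa, atrial natriuretic peptide, had 16798, 29373 and 42746 in BCAA-free TAC, against 28146, 104800 and 27588 in control diet TAC. Myh7, the slow myosin heavy chain, had 39006, 44173 and 57766 in BCAA-free TAC, against 61566, 171720 and 48962 in control diet TAC. In both, the BCAA-free values overlapped those of control diet replicates 1 and 3, and replicate 2 alone was far higher. The log2 fold changes were -0.65 (adjusted p 0.48) and -0.79 (0.25), and without replicate 2 -0.01 (0.99) and -0.24 (0.32).

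Other members of the hypertrophy list followed Acta1. Rcan1, a target of calcineurin signalling, had 2142, 2607 and 2913 in BCAA-free TAC, against 5586, 10139 and 7259 in control diet TAC (log2 fold change -1.55 ± 0.22, adjusted p 0.0031). Mybpc2, a fast-type myosin-binding protein gene, had 1181, 1624 and 1456 in BCAA-free TAC, against 2415, 3113 and 2676 in control diet TAC (log2 fold change -0.95 ± 0.13, adjusted p 0.002). Genes that load is known to lower were higher. Myh6, the adult myosin heavy chain, had 1647100, 1758700 and 1688200 in BCAA-free TAC, against 1300500, 960740 and 1149500 in control diet TAC (log2 fold change 0.59 ± 0.14, adjusted p 0.013). Atp2a2, the sarcoplasmic calcium pump, was at 0.69 ± 0.17 (adjusted p 0.015). No value of one diet reached the other in any of these 4 genes. Of the 19 list members, 2 were called higher and 7 lower (47.4%, against 34.2% of all genes), with a median log2 fold change of -0.79, and -0.24 without control diet TAC replicate 2. The list had 5 calls without BCAA-free TAC replicate 2 or 3 and 6 without replicate 1. The call of Myh6 was lost without BCAA-free TAC replicate 2 or 3 (adjusted p 0.057 and 0.060), while that of Atp2a2 was lost with any of the 3 BCAA-free libraries out (0.051 to 0.066).

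The RefSeq promoter window of Acta1, 250 bases before to 50 after the start site (GRCm38.p6, minus strand, chr8:123894726-123895025), is shown because it holds a CArG box, the element bound by serum response factor, in capitals:
Acta1: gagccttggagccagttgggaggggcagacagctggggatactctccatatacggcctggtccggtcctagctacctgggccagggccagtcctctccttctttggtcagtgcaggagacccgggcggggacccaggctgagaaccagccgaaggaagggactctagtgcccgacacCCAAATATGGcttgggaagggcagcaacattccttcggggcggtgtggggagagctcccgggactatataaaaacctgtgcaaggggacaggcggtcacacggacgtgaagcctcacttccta
A CArG box stood in 1.63% of all 32851 mouse promoter windows, in 1.31% of those of genes tested and in 1.47% of those of genes called lower.

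**Figure D2:**
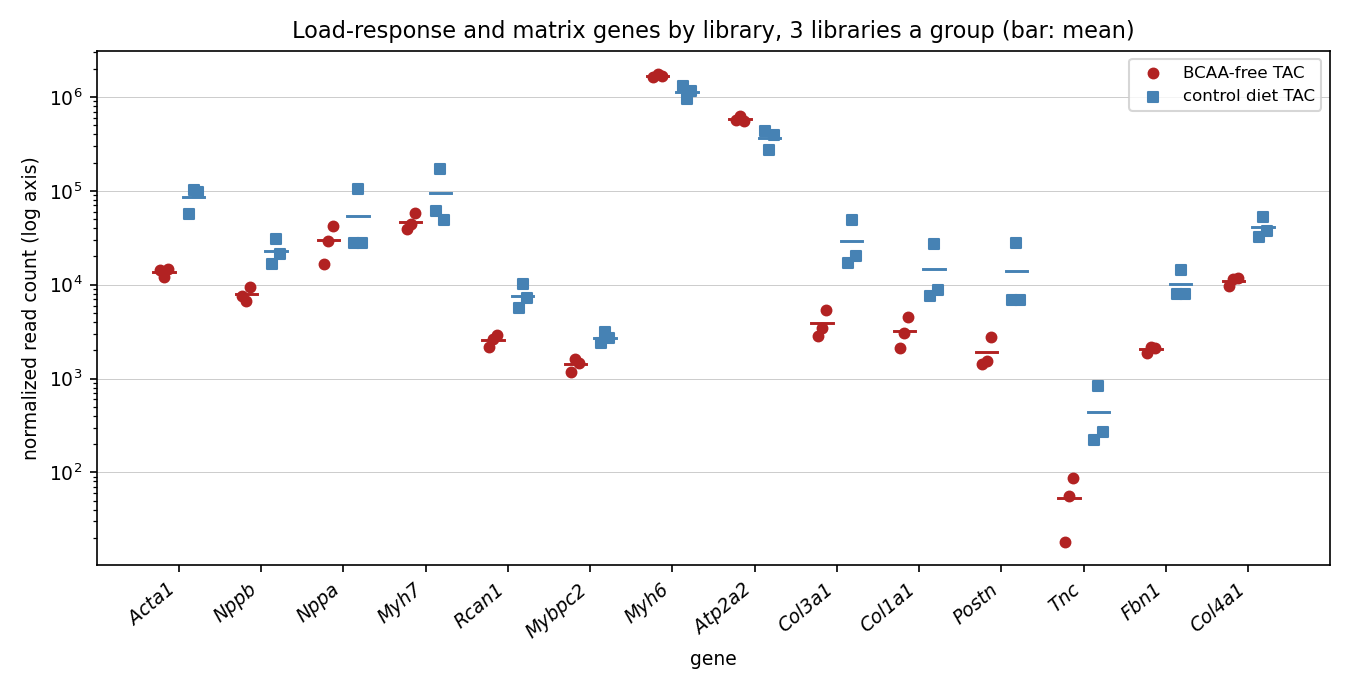
Normalized read count (y axis, log scale) of 14 load-response and matrix genes in the 3 BCAA-free TAC libraries (red circles) and the 3 control diet TAC libraries (blue squares); bars are means. Among these 14 genes the groups overlap only for Nppa and Myh7, where control diet TAC replicate 2, at 104800 and 171720, is the highest point.

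Genes of the extracellular matrix were lower. Of 45 genes of the matrix and fibrosis list, all tested, 31 fell (68.9%) and none rose, and the median log2 fold change was -1.66, against 0.00 for all genes. Col3a1, a fibrillar collagen, had 2856, 3491 and 5313 in BCAA-free TAC, against 17052, 49471 and 20396 in control diet TAC (log2 fold change -2.78 ± 0.46, adjusted p 0.0087). Every BCAA-free library was below every control diet library by more than 3-fold. Col3a1 was also lower on the BCAA-free diet after sham (-1.42, limma, adjusted p 0.0026). Its difference, after TAC minus after sham, was not called (-1.36, adjusted p 0.12). After sham 7 of 44 matrix genes tested were called lower and none higher, where 0.624% of all genes were called. Fbn1, which encodes the microfibril protein fibrillin, had 1888, 2141 and 2099 in BCAA-free TAC, against 8005, 14413 and 7929 in control diet TAC (-2.25 ± 0.23, adjusted p 0.0013). The basement membrane collagens Col4a1 and Col4a2 had log2 fold changes of -1.87 ± 0.17 and -1.44 ± 0.17 (adjusted p 0.00067 and 0.0014), and Col5a3 one of -1.36 ± 0.12 (0.00041). In all 4 genes the highest BCAA-free value was below the lowest control value.

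Genes made by activated fibroblasts were much higher in control diet TAC replicate 2 than in the other control hearts. Postn, the activated fibroblast gene periostin, had 1429, 1535 and 2763 in BCAA-free TAC, against 6837, 27947 and 6886 in control diet TAC (log2 fold change -2.59 ± 0.64, adjusted p 0.032; -1.91 without that library, adjusted p 0.022). Its groups did not overlap with or without that library. Col1a1, the main fibrillar collagen, had 2091, 3071 and 4571 in BCAA-free TAC, against 7660.4, 27478 and 8819 in control diet TAC (-1.99 ± 0.58, adjusted p 0.048). Tnc, a matrix glycoprotein of injured tissue, had 18.1, 55.5 and 87.9 in BCAA-free TAC, against 223, 825 and 272 in control diet TAC (-3.02 ± 0.73, adjusted p 0.025). Without replicate 2 neither passed: Col1a1 was at -1.41 (adjusted p 0.07) and Tnc at -2.44 (0.073), still with all BCAA-free libraries lower. The Col1a1 call was lost with any 1 of the 6 libraries out (adjusted p 0.053 to 0.11), that of Postn without BCAA-free TAC replicate 1 or 2 or control diet TAC replicate 1 (0.055 to 0.071), and that of Cthrc1 without the same 3 libraries (0.087 to 0.12). With GC and length trends removed these 3 genes were at adjusted p 0.051, 0.053 and 0.054, and 24 list members were called. Over the list, 35 members were called without control diet TAC replicate 2, with a median of -1.22, and 19 without BCAA-free TAC replicate 1 or replicate 2.

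Summed levels of fibroblast genes moved with this. The 14 fibroblast markers (0 higher, 9 lower, median -0.70), led by the fibroblast receptor gene Pdgfra (-0.71, adjusted p 0.00058), the laminin gene Lamc1 (-0.96), Cd248 (-1.07) and the small proteoglycan Lum (-1.19), summed to 79754 to 89271 normalized reads in BCAA-free TAC and 101310 to 125100 in control diet TAC. The 12 activated fibroblast markers (0 higher, 6 lower, median -1.79) summed to 10996 to 17012 in BCAA-free TAC and 23639 to 85062 in control diet TAC. No marker of either list was at 0 in any library. Of the 6 calls among activated fibroblast markers, 2, 1 and 3 were left in number without BCAA-free TAC replicates 1, 2 and 3, 3 without control diet TAC replicate 1, and 5 without control diet TAC replicate 2. Their part in the matrix genes was not tested. Genes of TGF-beta signalling were mixed, with 2 of 21 higher and 7 lower (median -0.58). Bmp6, a ligand, was higher (0.82 ± 0.09, adjusted p 0.00088) and so was the inhibitory Smad7 (0.80 ± 0.17, 0.0097), while the receptor gene Tgfbr1 (-0.82 ± 0.16, 0.006) and the matricellular gene Cyr61 (-1.32 ± 0.18, 0.0021) were lower. Without control diet TAC replicate 2, 14 of these 21 were called, 4 higher and 10 lower, and the median was -0.20; with GC and length trends removed 3 were higher and 6 lower.

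Interferon-stimulated genes were lower. Of 29 tested, 27 were lower (93.1%) and none higher, with a median log2 fold change of -1.01, and 24 to 28 were called whichever library was left out. Rsad2, which encodes the antiviral protein viperin, had 279, 360.2 and 266 in BCAA-free TAC, against 869.6, 929 and 909 in control diet TAC (log2 fold change -1.59 ± 0.12, adjusted p 0.00022). The RNA-binding Ifit2 had 399, 479 and 403 in BCAA-free TAC, against 829, 1125 and 857 in control diet TAC (-1.12 ± 0.13, adjusted p 0.0011). The nucleic acid sensor Zbp1 had 17.1, 17.9 and 19.7 in BCAA-free TAC, against 63.3, 98.2 and 91.1 in control diet TAC (-2.12 ± 0.24, 0.001), and Xaf1 was at -1.01 ± 0.12 (0.0011). No BCAA-free value reached a control value in any of the 4.

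Immune cell genes were lower as well. All 7 genes of class II antigen presentation fell, with a median of -1.42. H2-Aa, a chain of the class II molecule, had 359, 519.8 and 535 in BCAA-free TAC, against 1218, 1766 and 1608 in control diet TAC (-1.70 ± 0.18, adjusted p 0.0011). The invariant chain gene Cd74 had 996, 1375 and 1459 in BCAA-free TAC, against 2528, 4029 and 3729 in control diet TAC (-1.42 ± 0.21, 0.0035); H2-Eb1 and H2-Ab1 were at -1.70 and -1.56. In all 4 the lowest control diet value was above the highest BCAA-free value. Of 25 macrophage markers 17 fell and none rose (median -0.71), among them Mrc1 (-0.71 ± 0.09, adjusted p 0.0014), the growth factor receptor Csf1r (-0.58 ± 0.08, 0.0016), Adgre1, which encodes F4/80 (-1.38 ± 0.19, 0.002), and Ms4a7 (-2.05 ± 0.28, 0.0016). Their summed level was 11885 to 13931 in BCAA-free TAC and 17742 to 21523 in control diet TAC, and that of the class II genes was 2432 to 3582 in BCAA-free TAC and 6794 to 10467 in control diet TAC; none was at 0. Whether the interferon-stimulated genes follow the number of these cells was not tested.

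Complement genes fell for 8 of 18 members (median -0.44, and -0.27 without control diet TAC replicate 2), including the protease C1s1 (-0.63 ± 0.07, adjusted p 0.0011), the terminal component C7 (-0.91 ± 0.16, 0.0042), and the macrophage-made C1qb (-0.83) and C1qc (-0.60). Of 21 chemokine and cytokine genes tested, 8 fell and 2 rose (median -0.65, and -0.11 without control diet TAC replicate 2). The interferon-induced T cell attractant Cxcl9 had 54.2, 73.4 and 71.1 in BCAA-free TAC, against 136, 168 and 178 in control diet TAC (-1.27 ± 0.19, adjusted p 0.0022), Ccl9 was at -0.67 ± 0.12 (0.0042) and Ccl8 at -2.22 ± 0.46 (0.0075), while Il17d rose (1.16 ± 0.18, 0.0023). Without BCAA-free TAC replicate 2 this list had 6 calls. Of 18 lymphocyte markers only 7 were in the table, and 2 of them were called lower (28.6%, against 34.2% of all genes called). Leaving out any library other than control diet TAC replicate 2 left 1 call.

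Proliferation genes were mostly lower on the BCAA-free diet. Of 30 cell cycle genes 22 fell and 2 rose, with a median of -1.21. Mki67, the antigen of cycling cells, had 30.1, 46.1 and 27.6 in BCAA-free TAC, against 199, 764 and 331 in control diet TAC (-3.41 ± 0.47, adjusted p 0.0031). Top2a, the mitotic topoisomerase, had 7.02, 21.3 and 23.7 in BCAA-free TAC, against 143, 419 and 179.6 in control diet TAC (-3.76 ± 0.54, 0.0033). The kinase gene Cdk1 had 7.02, 9.39 and 7.90 in BCAA-free TAC, against 68.7, 149 and 74.5 in control diet TAC (-3.35 ± 0.33, 0.00064). Control diet TAC replicate 2 was again the highest library in all 3, and without it their log2 fold changes were -2.89, -3.29 and -3.0 (adjusted p 9e-05, 0.0015 and 0.0001). The mitotic motor gene Kif11 (-2.47 ± 0.31, adjusted p 0.0013) and the G1 cyclin gene Ccnd1 (-1.0 ± 0.12, 0.0011) were also lower, but Cenpf, a centromere protein gene, was higher (896, 894 and 804 in BCAA-free TAC, against 367, 296 and 335 in control diet TAC; 1.38 ± 0.11, adjusted p 0.00022). Between 17 and 27 list members were called with single libraries out. After sham Mki67 was also called lower on the BCAA-free diet (-1.71, limma, adjusted p 0.042). Top2a (-2.56, 0.060) and Cdk1 (-2.77, 0.16) did not pass there. The difference, after TAC minus after sham, was called for none of Mki67, Top2a and Cdk1 (limma, adjusted p 0.093, 0.38 and 0.75). The list's median after sham was -0.50, with 1 of 27 members called lower.

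Mitochondrial oxidation genes were modestly higher. Of 40 genes of the citric acid cycle and the respiratory chain 33 rose (82.5%) and none fell, with a median log2 fold change of 0.47 and a range of 0.24 to 1.01. Idh2, an NADP-dependent isocitrate dehydrogenase, had 92245, 85944 and 84434 in BCAA-free TAC, against 54425, 40611 and 50202 in control diet TAC (0.86 ± 0.12, adjusted p 0.0019). Complex I subunit Ndufv1 had 35431, 32712 and 34683 in BCAA-free TAC, against 22653, 16614 and 20645 in control diet TAC (0.79 ± 0.12, 0.0024). Control diet replicate 2 was the lowest library in both, and all 3 BCAA-free libraries were above all controls. Idh3g, a subunit of the cycle's regulated dehydrogenase, and Cox6a2, the muscle form of a complex IV subunit, were at 0.67 ± 0.10 and 0.83 ± 0.13 (adjusted p 0.0026 and 0.0026). Without control diet TAC replicate 2 still 33 rose, with a median of 0.35; without BCAA-free TAC replicate 1 or 3, 17 and 16 rose.

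Among 34 fatty acid oxidation genes 24 rose and 1 fell (median 0.44, and 0.33 without control diet TAC replicate 2). The fatty acid importer Slc27a1 had 14261, 15322 and 12003 in BCAA-free TAC, against 6507, 4869 and 5143 in control diet TAC (1.34 ± 0.13, adjusted p 0.00063). Mlycd, which removes the malonyl-CoA that blocks fatty acid entry, had 5885, 5951 and 5176 in BCAA-free TAC, against 3342, 2473 and 3009.7 in control diet TAC (0.95 ± 0.12, 0.0011). Both sets of values were separate. Electron transfer flavoprotein gene Etfb was at 0.85 ± 0.16 (0.0067) and the enoyl-CoA hydratase gene Echs1 at 0.45 ± 0.09 (0.0081). Only 8, 13 and 11 members were called without BCAA-free TAC replicate 1, 2 and 3, and 15 without control diet TAC replicate 3. Of 14 regulator genes of this program 1 rose and 1 fell, against 1 and 3 on equal library totals and 2 and none with GC and length trends removed; counts with single libraries out were 1 to 4. The gene that rose was Esrra, the receptor ERR-alpha, with 8810.3, 9504 and 9426 in BCAA-free TAC, against 6924, 5449 and 6586 in control diet TAC (0.56 ± 0.10, adjusted p 0.0048). Glucose genes were mixed, with 8 of 31 higher and 3 lower: the insulin-regulated transporter Slc2a4 (0.72 ± 0.13, 0.0048), the pyruvate dehydrogenase kinase Pdk2 (0.72 ± 0.13, 0.004) and Ldhb (0.69 ± 0.13, 0.0051) were higher, and the heart phosphofructokinase-2 gene Pfkfb2 was lower (-0.71 ± 0.13, 0.0059). In that list 15 were called without control diet TAC replicate 2 (12 higher, 3 lower), 6, 7 and 6 without BCAA-free TAC replicates 1, 2 and 3, and 7 without control diet TAC replicate 3. The share called was 35.5% of the glucose genes and 14.3% of the regulator genes, against 34.2% of all genes. Cardiomyocyte markers moved the same way: 10 of 15 rose and 1 fell (median 0.41), against 7 and 2 on equal library totals. Their summed level was 3680100 to 3859600 in BCAA-free TAC and 2484100 to 3082800 in control diet TAC, with 7, 4 and 7 calls without BCAA-free TAC replicate 2, BCAA-free TAC replicate 3 and control diet TAC replicate 3. These sums move with the oxidation genes, and their part was not tested.

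Genes of BCAA degradation were mostly higher on the diet that lacked BCAA. Bcat2, the first step, had 4408, 4068 and 4454 in BCAA-free TAC, against 2901, 2639 and 2768 in control diet TAC (log2 fold change 0.64 ± 0.08, adjusted p 0.0011). The activating phosphatase gene Ppm1k had 2523, 2511 and 2305 in BCAA-free TAC, against 1765, 1163 and 1376 in control diet TAC (0.79 ± 0.14, 0.0044). The inhibiting kinase gene Bckdk had 3436, 3276 and 3523 in BCAA-free TAC, against 2696, 2198 and 2563 in control diet TAC (0.46 ± 0.09, 0.0061). In all 3 each BCAA-free library exceeded each control. The dehydrogenase subunits Bckdha (0.75 ± 0.14, 0.005) and Bckdhb (0.72 ± 0.16, 0.011) and Klf15, the transcription factor known to raise BCAA catabolic genes in muscle (0.94 ± 0.21, 0.013), rose too. The other subunits of the complex, Dbt and Dld, had log2 fold changes of 0.28 and 0.21 and did not pass (adjusted p 0.14 and 0.18; Dbt passed without control diet TAC replicate 1, at 0.032, and with GC and length trends removed, at 0.049). Bcat1, the cytosolic transaminase, was lower, at 39.1, 38.4 and 56.3 in BCAA-free TAC, against 70.0, 118 and 73.2 in control diet TAC (-0.93 ± 0.26, adjusted p 0.024; 0.081 and 0.085 without BCAA-free TAC replicate 1 or 2, and 0.10 with GC and length trends removed). Dbt, Dld and Bcat1 were chosen after their values were seen. In all, 6 of 10 members of this step rose and 1 fell (70%, median 0.55), 7 rose and none fell with GC and length trends removed, and 6 to 8 were called with single libraries out.

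Further down the pathway, 9 of 10 genes of the leucine and isoleucine branch rose (median 0.50), among them isovaleryl-CoA dehydrogenase Ivd (16592, 15927 and 16391 in BCAA-free TAC, against 11968, 8351 and 10715 in control diet TAC; 0.67 ± 0.13, adjusted p 0.0052), Mccc2 (0.60), Hsd17b10 (0.64) and Auh (0.48). Of 11 genes of the valine and propionate branch 5 rose and none fell (median 0.37, and 0.22 without control diet TAC replicate 2), led by the propionyl-CoA carboxylase subunit gene Pccb (0.47 ± 0.10, 0.0078). Without BCAA-free TAC replicate 1 or 3, the leucine branch had 5 calls each and the valine branch 1 each. On equal library totals 3 genes of the valine branch rose, and with GC and length trends removed 9 did. The citric acid cycle list had a median of 0.47; whether these branches differ from it was not tested.

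Genes of amino acid transport and sensing changed in both directions, in proportions that moved with the scaling. Of 25 amino acid transporters 6 were higher and 7 lower (median -0.04); on equal library totals 2 were higher and 7 lower (median -0.16), and with GC and length trends removed 7 higher and 5 lower (median 0.10). Slc7a5, the large neutral transporter that carries BCAA, was lower, at 187, 271 and 297 in BCAA-free TAC, against 359, 494 and 376 in control diet TAC (-0.71 ± 0.19, adjusted p 0.021; 0.058 without BCAA-free TAC replicate 1). The peptide and histidine transporter Slc15a3 (-1.24 ± 0.16, 0.0015), Slc7a6 (-0.63 ± 0.09, 0.0022) and Slc38a4 (-0.60 ± 0.10, 0.0032) were lower as well. Of 27 genes of leucine sensing and mTORC1 control 8 were higher and 4 lower (median 0.07, and 0.03 without control diet TAC replicate 2). On equal library totals this turned to 1 higher and 6 lower (median -0.06), and with GC and length trends removed it was 8 higher and 2 lower. The leucine sensor Sesn2 had 126, 201 and 146 in BCAA-free TAC, against 172, 185 and 168 in control diet TAC, with full overlap (-0.18, adjusted p 0.47). Its relative Sesn3 was lower (-0.62 ± 0.10, 0.0029), as was the folliculin partner Fnip2 (-0.85 ± 0.12, 0.002), and the mTORC1 targets Eif4ebp1 (0.37 ± 0.07, 0.0061) and Akt1s1 (0.38 ± 0.08, 0.0084) were higher.

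Genes of the ATF4 program were mixed. Atf4 itself had 2666, 2421 and 2637 in BCAA-free TAC, against 2490.2, 3595 and 2853 in control diet TAC (-0.20, adjusted p 0.25). Asns, its classical asparagine synthetase target, was lower, at 36.1, 59.7 and 68.1 in BCAA-free TAC, against 99.6, 101 and 82.5 in control diet TAC (-0.82 ± 0.25, adjusted p 0.033; 0.055 to 0.088 when BCAA-free TAC replicate 1 or 2 or control diet TAC replicate 1 or 3 was left out). Atf4 overlapped between the diets and Asns did not. Of the 29 list members 9 were higher and 5 lower (median -0.11, and -0.02 without control diet TAC replicate 2), against 5 and 6 on equal library totals and 6 and 6 with GC and length trends removed. Stc2 rose (0.56 ± 0.12, 0.0082), the proline synthesis gene Aldh18a1 fell (-0.73 ± 0.16, 0.0094), and Cebpb rose most. Cebpb, a transcription factor of the stress and growth responses, had 2350.3, 2802 and 3158 in BCAA-free TAC, against 582, 583 and 632 in control diet TAC (2.20 ± 0.11, adjusted p 3.1e-05), and was 4.63-fold higher in BCAA-free TAC. Of 20 cytosolic tRNA synthetase genes 3 were higher and 2 lower (25.0%, against 34.2% of all genes), led by Kars (0.44 ± 0.07, 0.0037). On equal library totals 1 was higher and 4 lower. With BCAA-free TAC replicates 1, 2 and 3 and control diet TAC replicates 1, 2 and 3 left out in turn, the calls numbered 9, 6, 7, 15, 12 and 7 for transporters, 5, 6, 6, 6, 10 and 5 for mTORC1 control, 7, 5, 7, 10, 11 and 9 for the ATF4 list, and 1, 1, 2, 2, 2 and 1 for the synthetases. Akt1s1 was at an adjusted p of 0.080 with GC and length trends removed, and Eif4ebp1 at 0.053 on equal library totals.

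Circadian clock genes differed in both directions. The clock is a loop in which BMAL1 (Arntl) with CLOCK or NPAS2 activates Per, Cry and Rev-erb genes through E-boxes, whose products then repress it, and in which DBP, TEF and HLF drive output genes through D-boxes against the repressor NFIL3. Arntl had 136, 189 and 158 in BCAA-free TAC, against 888, 789 and 827 in control diet TAC (log2 fold change -2.38 ± 0.13, adjusted p 4.9e-05). Its partner Npas2 had 92.3, 81.9 and 77.0 in BCAA-free TAC, against 250.4, 269.8 and 273 in control diet TAC (-1.65 ± 0.14, 0.00032). Clock was lower too (904, 859 and 806 in BCAA-free TAC, against 1691, 1455 and 1739 in control diet TAC; -0.92 ± 0.09, 0.00067). The 3 activators thus fell without any overlap.

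Of their targets named here, Per2, Per3 and Ciart were higher and Nr1d1 was not called. Per2 had 1517, 1203 and 1189.5 in BCAA-free TAC, against 365, 377 and 338 in control diet TAC (1.85 ± 0.11, adjusted p 8.7e-05). Per3 had 1862, 1605 and 1369 in BCAA-free TAC, against 456, 503 and 489 in control diet TAC (1.73 ± 0.11, 0.00013). Ciart, a repressor of the loop, had 1099.9, 1466 and 929 in BCAA-free TAC, against 268, 269 and 194 in control diet TAC (2.24 ± 0.19, 0.00051). All 3 were at least 2-fold higher in the lowest BCAA-free library than in the highest control. Nr1d1, which encodes Rev-erb-alpha, overlapped between the diets, at 4245, 5656 and 4783 in BCAA-free TAC, against 4284, 4569 and 4219 in control diet TAC (0.16, adjusted p 0.28). Of the output factors, Dbp had 6131, 5884 and 5074 in BCAA-free TAC, against 855, 989 and 779.5 in control diet TAC (2.70 ± 0.11, 1.2e-05), Hlf was at 2.01 ± 0.13 (0.00014), Tef at 1.20 ± 0.11 (0.00043) and the deubiquitinase Usp2 at 1.23 ± 0.13 (0.00088). Nfil3, their opponent, was lower (171, 207 and 255 in BCAA-free TAC, against 509, 563 and 507 in control diet TAC; -1.34 ± 0.15, 0.00092). Clock and Nfil3 were chosen after their values were seen. Of 15 core clock genes 5 were higher and 4 lower, and of 15 output genes 11 were higher and 3 lower; with GC and length trends removed 6 core genes were higher and 3 lower. The core count was 9 or 10 whichever library was left out, and the output count 10 to 15.

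Sham hearts were less uniform within a diet. After sham Dbp had 2193, 2892 and 466 in BCAA-free sham, against 479, 665 and 304 in control diet sham. Arntl had 447, 261 and 742 in BCAA-free sham, against 918, 899 and 1001 in control diet sham. Replicate 3 of BCAA-free sham lay within the range of the controls for Dbp, and the other 2 replicates lay far above it. The diet effects after sham were 1.64 for Dbp (adjusted p 0.42) and -1.08 for Arntl (0.2), and only Per2 of the named clock genes passed there (2.14, 0.033). The difference of the diet effects, after TAC minus after sham, was called for Npas2 (-1.18, adjusted p 0.04) but not for Dbp (1.06, 0.43) or Arntl (-1.29, 0.058). The Npas2 call held with only 2 of the 12 libraries left out in turn (adjusted p up to 0.094), and whether these genes differ from each other in it was not tested. The labels give no time of collection, so time of day and diet cannot be told apart here.

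**Figure D3:**
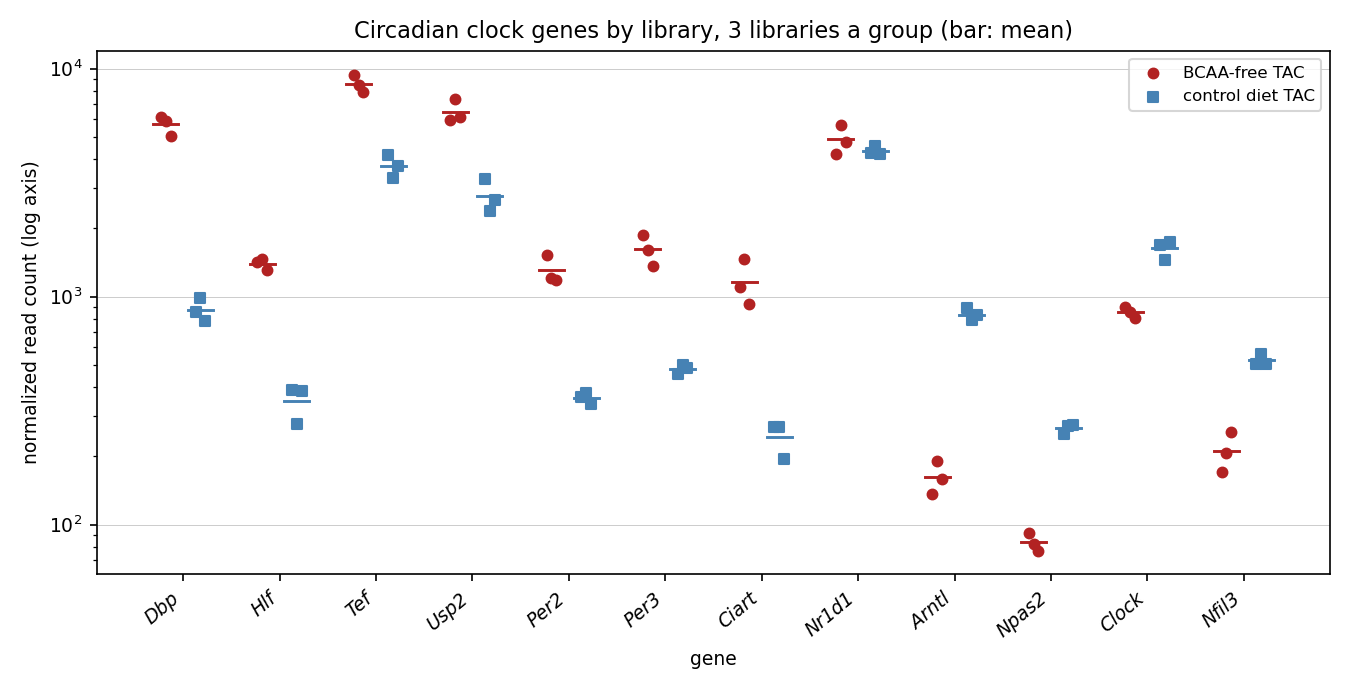
Normalized read count (y axis, log scale) of 12 circadian clock genes in the 3 BCAA-free TAC libraries (red circles) and the 3 control diet TAC libraries (blue squares); bars are means. Dbp, Hlf, Tef, Usp2, Per2, Per3 and Ciart sit higher in BCAA-free TAC, Arntl, Npas2, Clock and Nfil3 lower, and only Nr1d1 overlaps.

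The promoter windows of Ciart and Per3, clock genes that rose, are shown, with the elements named above in capitals (RefSeq, GRCm38.p6, 250 bases before to 50 after the start site, both on the minus strand). That of Ciart, chr3:95882179-95882478, holds 3 E-boxes (CACGTG), and that of Per3, chr4:151044616-151044915, holds 2 D-boxes (TTATGNAA):
Ciart: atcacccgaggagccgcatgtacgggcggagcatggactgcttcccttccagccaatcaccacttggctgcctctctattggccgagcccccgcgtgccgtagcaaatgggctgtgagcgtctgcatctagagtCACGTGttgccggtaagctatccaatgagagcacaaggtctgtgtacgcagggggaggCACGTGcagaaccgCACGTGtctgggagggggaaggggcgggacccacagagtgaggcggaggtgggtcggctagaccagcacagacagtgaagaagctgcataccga
Per3: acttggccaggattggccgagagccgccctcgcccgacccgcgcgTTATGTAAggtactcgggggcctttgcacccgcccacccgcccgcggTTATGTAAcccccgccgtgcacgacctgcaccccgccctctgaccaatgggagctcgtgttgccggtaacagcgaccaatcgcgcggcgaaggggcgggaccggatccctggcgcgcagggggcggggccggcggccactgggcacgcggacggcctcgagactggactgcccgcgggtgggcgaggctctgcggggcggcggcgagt
Both strands were searched, and the motifs share no letters in these windows. An E-box stood in 7.15% of all promoter windows, 9.62% of those of genes tested, 9.41% of those of genes called higher and 9.06% of those called lower. A D-box stood in 3.38% of all promoter windows, 2.03% of those of genes tested, 2.08% of those of genes called higher and 2.03% of those called lower. Among clock and clock output genes with a window, 6 of 25 tested held an E-box. So did 2 of the 13 called higher and 1 of the 7 called lower. For the D-box these counts were 2, 1 and 0. A match describes the letters and is not evidence of binding.

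Contractile genes were mixed. Of 20 sarcomere genes 7 rose and 3 fell (median 0.21), against 6 and none with GC and length trends removed. Tcap, the Z-disc protein telethonin, had 96771, 87261 and 83732 in BCAA-free TAC, against 29706, 23884 and 25564 in control diet TAC (1.76 ± 0.11, adjusted p 0.00011), with no overlap. The troponins Tnnt2 (0.68 ± 0.11, 0.0029) and Tnni3 (0.89 ± 0.15, 0.0038) and the ventricular light chain Myl2 (0.63 ± 0.14, 0.01) rose, though Myl2 was at an adjusted p of 0.050 without BCAA-free TAC replicate 3. Of 16 potassium channel genes 8 rose and 1 fell (median 0.39, and 0.24 without control diet TAC replicate 2). The repolarizing channel Kcnh2 had 6475, 7854 and 6913 in BCAA-free TAC, against 3779.7, 2491 and 2431 in control diet TAC (1.31 ± 0.17, adjusted p 0.0017). The inward rectifiers Kcnj12 (0.93 ± 0.10, 0.0009), Kcnj11 (0.60 ± 0.11, 0.005) and Kcnj5 (0.68 ± 0.13, 0.0058) rose. Calcium handling genes split, with 4 of 18 higher and 7 lower, the sodium-calcium exchanger Slc8a1 lower (4239, 4658 and 3448 in BCAA-free TAC, against 8539, 7584 and 7183 in control diet TAC; -0.92 ± 0.12, 0.0014) and the channel subunit Cacnb2 higher (0.47 ± 0.10, 0.0081); with GC and length trends removed the split was 6 higher and 2 lower. With BCAA-free TAC replicates 1, 2 and 3 and control diet TAC replicates 1, 2 and 3 left out in turn, the calls numbered 8, 5, 4, 9, 9 and 5 for sarcomere genes, 6, 6, 5, 10, 10 and 5 for potassium channels, and 6, 6, 6, 10, 11 and 7 for calcium handling.

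Among iron handling genes, Tfrc was lower after both operations. Tfrc, the transferrin receptor that imports iron, had 992, 994 and 1079 in BCAA-free TAC, against 2917, 2933 and 3345 in control diet TAC (-1.58 ± 0.08, adjusted p 3.8e-05). After sham it had 836, 761 and 793 in BCAA-free hearts, against 2960.5, 2002 and 1997 in control diet hearts (-1.52, adjusted p 0.0017). The difference of these effects was -0.07 ± 0.18 (adjusted p 0.84). Hamp, the iron hormone hepcidin, rose after TAC (104, 181 and 131 in BCAA-free TAC, against 40.4, 22.3 and 33.3 in control diet TAC; 2.09 ± 0.28, 0.0016), as did ferritin heavy chain Fth1 (0.53 ± 0.10, 0.0047), and Ireb2, an iron regulatory protein gene, fell (-0.64 ± 0.08, 0.0014). Of 15 iron genes 4 rose and 5 fell, against 3 and 6 on equal library totals.

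Stress response lists were mixed. Of 22 unfolded protein response genes 2 rose and 4 fell, Herpud1 (1.17 ± 0.15, adjusted p 0.0018) and Atf6 (-0.56 ± 0.08, 0.0018) among them, with 3 calls without BCAA-free TAC replicate 1 or 3 or control diet TAC replicate 3. Of 20 heat shock genes none rose and 7 fell, including Hsp90aa1 (-0.86 ± 0.14, 0.0038) and the collagen chaperone Serpinh1 (-1.0 ± 0.21, 0.011), with 3, 3 and 4 calls without BCAA-free TAC replicates 1, 2 and 3 and 4 without control diet TAC replicate 3. Of 26 FOXO, atrophy and autophagy genes 10 rose, such as Map1lc3a (0.69 ± 0.10, 0.002), and 2 fell, such as Fbxo30 (-0.65 ± 0.09, 0.0019). Glutathione transferases Gstm1 (1.06 ± 0.12, 0.00097) and Gstp1 (0.67 ± 0.09, 0.0016) were among 6 of 23 NRF2 genes that rose, with 2 that fell. Of 20 glucocorticoid-responsive genes 7 rose, Ptgds (1.42 ± 0.17, 0.0014), Arrdc2 (1.64 ± 0.26, 0.0052) and Hif3a (1.35 ± 0.19, 0.0018) among them, and 3 fell, including the receptor gene Nr3c1 (-0.69 ± 0.08, 0.0011). On equal library totals 1 unfolded protein response gene was higher and 6 lower, 7 FOXO list genes were higher and 4 lower, and 4 NRF2 genes were higher and 3 lower. With GC and length trends removed, 3 unfolded protein response genes were higher and 2 lower, and 6 NRF2 genes higher and 5 lower. Of the heat shock genes 4 were then lower and none higher. The share called was 27.3% of unfolded protein response, 35.0% of heat shock and 34.8% of NRF2 genes, against 34.2% of all genes. It was 46.2% in the FOXO list and higher still in the glucocorticoid-responsive list.

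Of 40 ribosomal protein genes 23 rose and none fell, by a median of 0.27, such as Rplp2 (0.43 ± 0.08, 0.0056) and Rpl27 (0.43 ± 0.09, 0.0066). With GC and length trends removed 10 rose, the median was 0.11 and Rpl27 was at an adjusted p of 0.071; on equal library totals 6 rose. Without BCAA-free TAC replicate 1 or 3, or control diet TAC replicate 1 or 3, 6, 5, 15 and 8 rose. Immediate early genes were mixed (3 of 28 higher and 5 lower), with the flow-responsive Klf2 higher (1.25 ± 0.12, 0.00052) and Nr4a3 lower (-1.47 ± 0.21, 0.0022); 4, 4 and 5 were called without BCAA-free TAC replicates 1, 2 and 3. On equal library totals 1 was higher and 5 lower, and with GC and length trends removed 3 and 3. Cholesterol synthesis had 3 of 22 higher, such as Fdft1 (0.77 ± 0.16, 0.009), and 4 lower, against 1 and 5 on equal library totals and 4 and none with GC and length trends removed, and had 4 calls without BCAA-free TAC replicate 3. The share called was 57.5% of ribosomal protein, 28.6% of immediate early and 31.8% of cholesterol synthesis genes, against 34.2% of all genes.

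Signalling genes between cells changed in both directions. Vegfb, a growth factor of the VEGF family made by cardiomyocytes, had 7877, 9289 and 10026 in BCAA-free TAC, against 4785, 4069.6 and 4589 in control diet TAC (1.01 ± 0.11, adjusted p 0.00085). The co-receptor gene Nrp2 had 1469, 1682 and 1443 in BCAA-free TAC, against 3118, 3684 and 3653 in control diet TAC (-1.18 ± 0.10, 0.00026). The ligand Edn3 was at -1.75 ± 0.18 (0.00069) and the endothelin receptor Ednrb at -0.98 ± 0.12 (0.0013). Each of the 4 was separate between the diets. The growth factor Igf1 was lower (258, 266 and 328 in BCAA-free TAC, against 545, 1091 and 521 in control diet TAC; -1.26 ± 0.28, adjusted p 0.014; -0.91 without control diet TAC replicate 2, and adjusted p 0.057 with GC and length trends removed), and its binding protein gene Igfbp5 as well (-0.62 ± 0.08, 0.0015). Of 19 genes of VEGF, endothelin and renin-angiotensin signalling 2 rose and 5 fell, and of 11 IGF genes 3 rose and 3 fell, with 3 calls without BCAA-free TAC replicate 1 or control diet TAC replicate 3. On equal library totals no IGF gene was higher and 3 were lower, and with GC and length trends removed 4 VEGF, endothelin and renin-angiotensin genes were higher and 4 lower. The share called was 36.8% of the VEGF, endothelin and renin-angiotensin genes and 54.5% of the IGF genes, against 34.2% of all genes.

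**Figure D4:**
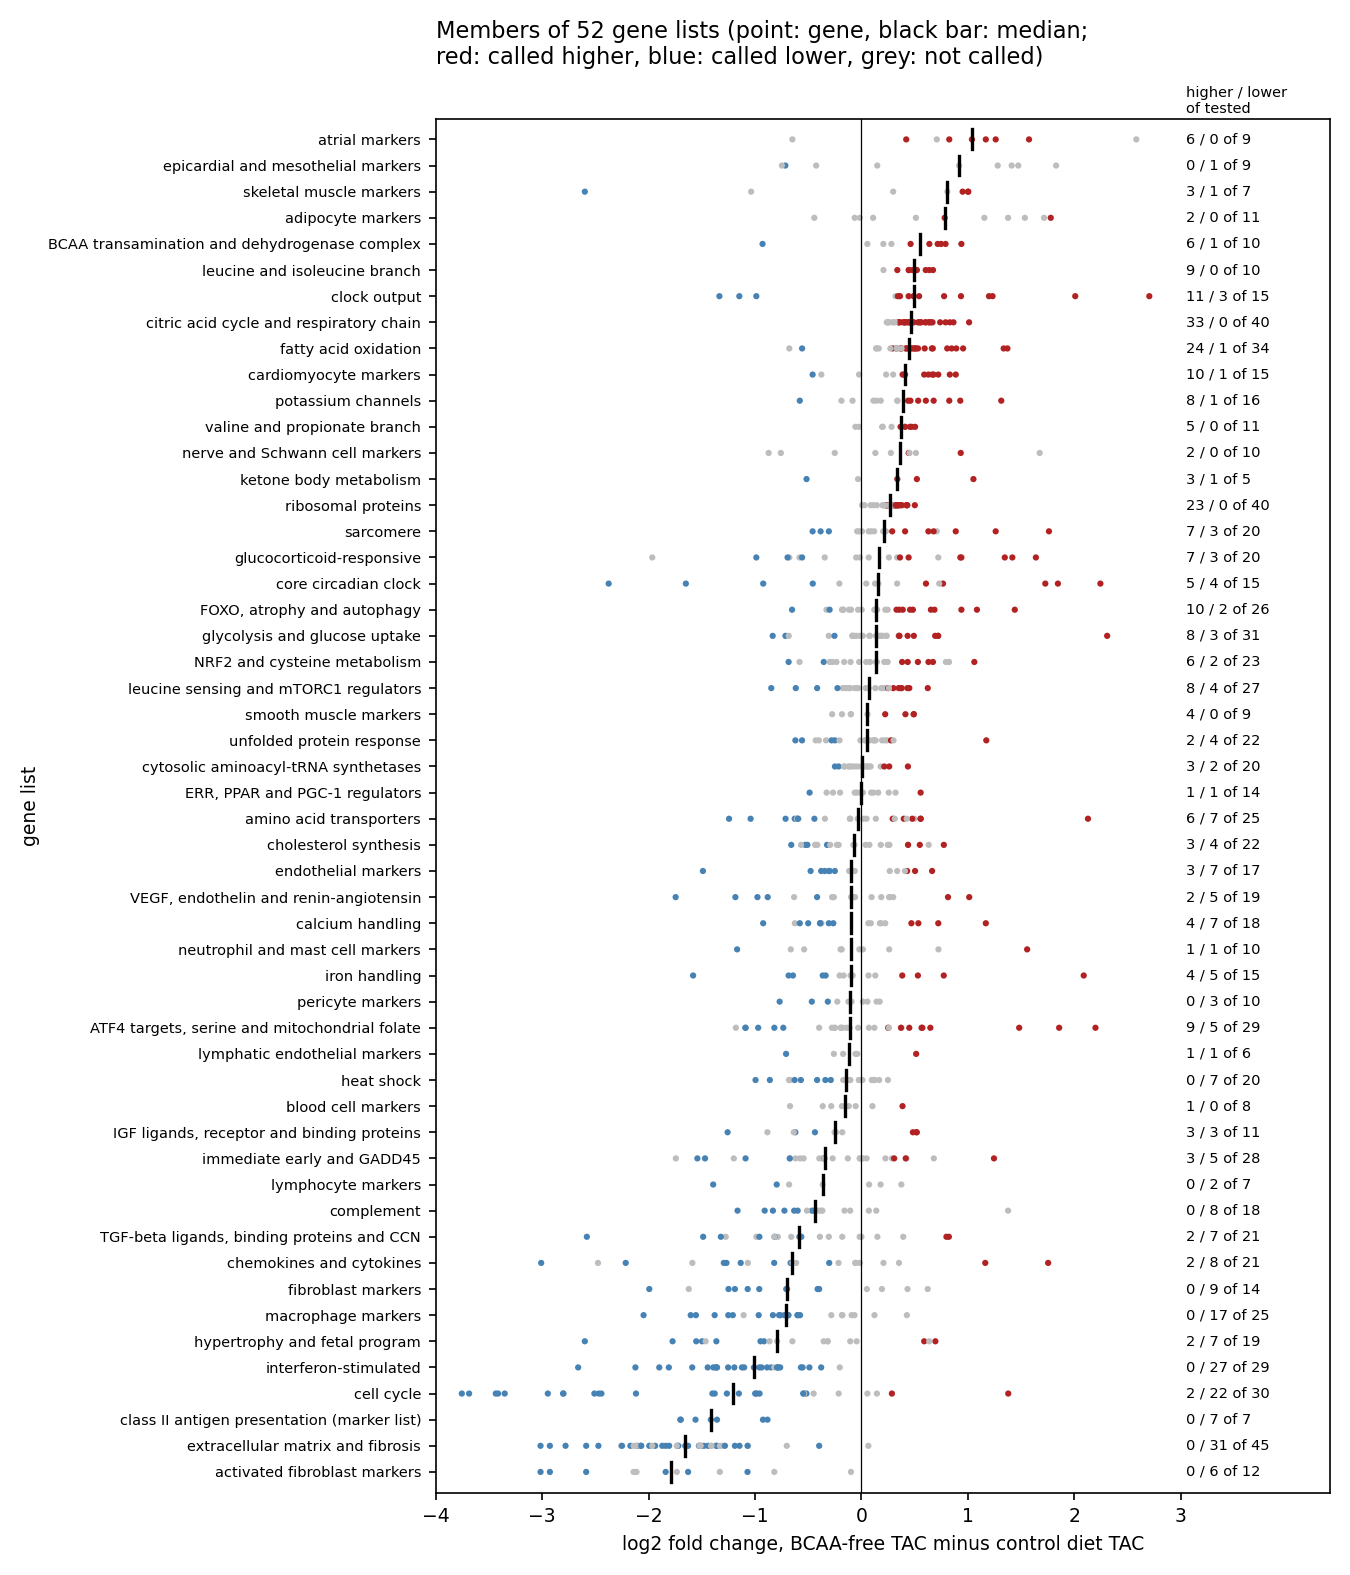
Log2 fold change (BCAA-free TAC minus control diet TAC, x axis) of each tested member of 52 gene lists (y axis), with the list's median as a black bar and the numbers called higher and lower at the right. Medians run from -1.79 for activated fibroblast markers and -1.66 for matrix genes to 0.47 for the citric acid cycle list and 1.04 for atrial markers.

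Markers of other cell types moved less evenly. Of 17 endothelial markers 3 rose, such as Vwf (0.66 ± 0.09, adjusted p 0.0016), and 7 fell, such as the tight junction gene Cldn5 (747, 923 and 712 in BCAA-free TAC, against 2330, 2694 and 1737 in control diet TAC; -1.49 ± 0.17, 0.0011). Their summed level was 88078 to 97311 in BCAA-free TAC and 87662 to 96099 in control diet TAC, and 6 were called without BCAA-free TAC replicate 3. Of 9 smooth muscle markers 4 rose (1 higher and 1 lower on equal library totals), led by Smtn (0.49 ± 0.10, 0.0083; 0.053 with GC and length trends removed), with a median of 0.06 that turned to -0.07 on equal library totals or with GC and length trends removed, and 0.21 without control diet TAC replicate 2. After sham 3 of these 9 were higher on the BCAA-free diet, with a median of 0.74. Of 10 pericyte markers 3 fell (30.0%, against 34.2% of all genes called), led by Mcam (-0.77 ± 0.11, 0.002). Only 1 and 2 smooth muscle markers were called without BCAA-free TAC replicate 1 and 2, and 1 without BCAA-free TAC replicate 3 or control diet TAC replicate 3. None of these markers was at 0. The cardiomyocyte protease gene Corin was higher (0.66 ± 0.08, 0.0012).

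Atrial markers were mostly higher but uneven between libraries. Of 9 atrial markers 6 rose and none fell (median 1.04), led by Tbx5 (1174, 1803 and 1683 in BCAA-free TAC, against 914, 644 and 698 in control diet TAC; 1.04 ± 0.19, adjusted p 0.0057) and Stard10 (1564, 2514 and 2463 in BCAA-free TAC, against 954, 511 and 749.6 in control diet TAC; 1.57 ± 0.27, 0.0076). Leaving out Nppa, their summed level was 14919, 25251 and 27197 in BCAA-free TAC, against 13182, 8520 and 9840 in control diet TAC. Bmp10, which is made by the right atrium and was chosen after its values were seen, had 174, 3889 and 138 in BCAA-free TAC, against 575, 36.7 and 19.3 in control diet TAC, a spread within each diet that leaves its log2 fold change at 2.58 (adjusted p 0.34). Only 3 markers were called without BCAA-free TAC replicate 2 or 3 or control diet TAC replicate 3. Each BCAA-free sum was above each control sum when Nppa was left out; with Nppa the sums overlapped, at 31717, 54624 and 69943 in BCAA-free TAC, against 41328, 113321 and 37429 in control diet TAC. The part of these sums in the other results was not tested.

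Whether the diet acted differently under load was asked by the difference of the diet effects, after TAC minus after sham. The diet changed 5435 genes after TAC and 95 of 15217 after sham (0.624%). Of the 95, 69 were also called after TAC, all in the same direction, which is 72.6% of the sham calls and 1.27% of the TAC calls. The 2 comparisons share no samples. The difference itself was called for 1329 of 15138 genes (8.78%), 757 higher and 572 lower, and 1182 of them were also called after TAC. For 988 of the 1329 the diet effect after sham had the opposite sign to that after TAC. Selection by the difference itself favours opposite signs, and their share over all genes was not counted. The smallest p-values belonged to Plekhg1 (-1.16 ± 0.14, adjusted p 0.0046), Cebpb (2.20 ± 0.26, 0.0046), Fam102b (-1.12 ± 0.14), Prrg3 (-1.30 ± 0.17), the transcription factor Creb5 (-1.25 ± 0.17), the corepressor Aes (1.11 ± 0.15), Rap1gap (1.25 ± 0.17) and Vegfb (1.03 ± 0.14), the last of these at an adjusted p of 0.0049. Cebpb after sham had 739, 746 and 648 in BCAA-free hearts, against 621, 554 and 1033 in control diet hearts, an effect of 0.00.

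By list, the difference was called higher for 25 of 40 citric acid cycle and electron transport genes and 11 of 34 fatty acid oxidation genes, and lower for 10 of 44 matrix genes and 7 of 29 interferon-stimulated genes. The median diet effects of these 4 lists were 0.47, 0.44, -1.66 and -1.01 after TAC, and -0.15, -0.10, -0.35 and -0.23 after sham. For class II genes the medians were -1.42 after TAC and -1.06 after sham, with no difference called; for macrophage markers they were -0.71 after TAC and -0.56 after sham, also with none. The count of differences was less stable than that of diet effects. It was 593 with GC and length trends removed (454 higher, 139 lower), 1856 on equal library totals (390 higher, 1466 lower), and 240 to 1774 with single libraries out. It was 240 and 316 without BCAA-free sham replicate 2 and 1, 251, 458 and 713 without BCAA-free TAC replicate 3, 1 and 2, and 662 and 673 without control diet TAC replicate 2 and 3.

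**Figure D5:**
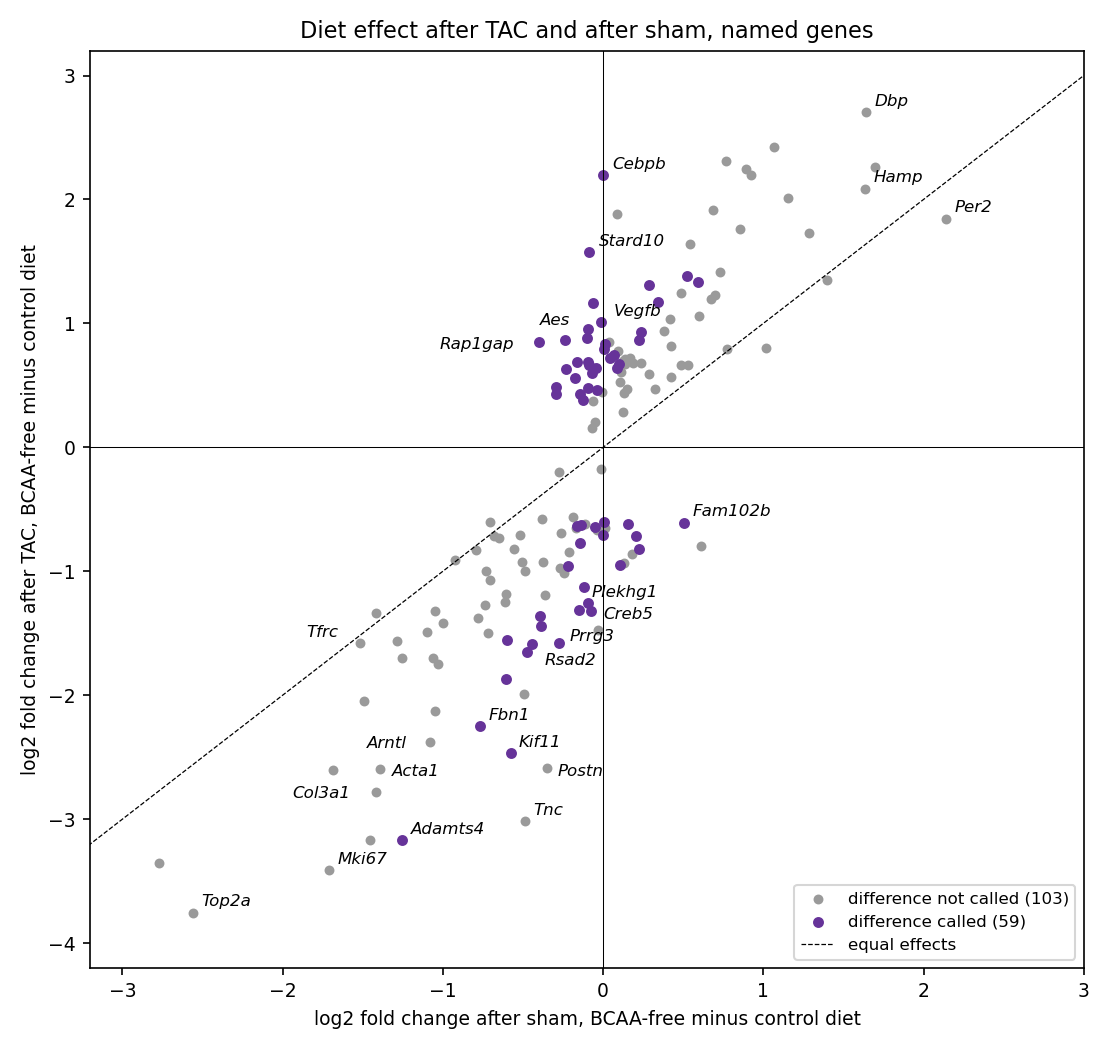
Diet effect after TAC (y axis) against diet effect after sham (x axis), both as log2 fold change of BCAA-free minus control diet, for 162 named genes found in both tables; purple points have a called difference and the dashed line marks equal effects. Cebpb, at 2.20 after TAC and 0.00 after sham, lies on the vertical axis and Tfrc close to the dashed line. Bmp10, at 0 in 1 sham library, was left out by choice. Cdk1, at 0 in BCAA-free sham replicate 2, is drawn.

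The effect of TAC itself on each diet uses the same TAC libraries, so its values are only set side by side. TAC on the BCAA-free diet changed 977 of 15670 genes (6.23%), and TAC on the control diet 622 of 15397 (4.04%). Such counts also depend on the spread within groups, and control diet TAC replicate 2 stood apart from its group. The part of that library in these counts was not tested. For Acta1 the log2 fold change of TAC over sham was 1.53 on the BCAA-free diet and 2.73 on the control diet, for Nppb 0.83 and 1.61. It was, for Nppa, 1.74 and 2.40, and for Myh7 0.61 and 2.01. Col3a1 was at 0.80 and 2.16, Postn at 0.85 and 3.08, Fbn1 at -0.03 and 1.45, and Rsad2 at -0.48 and 0.66. In Nppa and Myh7 control diet TAC replicate 2 was far above the other control diet TAC libraries. The difference of the diet effects (limma) was called for Fbn1 (adjusted p 0.012) and Rsad2 (0.016). It was not called for Acta1 (0.075), Nppb (0.32), Col3a1 (0.12) or Postn (0.084), nor for Nppa or Myh7. By list, the medians on the BCAA-free and the control diet were 0.41 and 1.83 for matrix genes, 0.04 and 0.75 for interferon-stimulated genes, 0.14 and -0.53 for the citric acid cycle list, and 0.02 and -0.37 for BCAA transamination and its dehydrogenase complex.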

How the data were processed

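PolyA RNA of 12 mouse heart samples in 4 groups of 3 was sequenced. The deposited tables hold 6 libraries each, and each library stands in 2 tables. The authors deposited normalized read counts, a signal made by dividing gene counts by 1 size factor per library within a table. Division by a library's step gave whole reads for 100% of values (tolerance 0.01), on which edgeR called 5458 genes. The submitters' processing notes name DESeq2, Subread 1.5.2, STAR 2.5.2b and Trimmomatic 0.36, and GRCm38 (mm10). Their roles, the counting of reads shared by near-identical genes such as Myh6 and Myh7 or by overlapping genes, and the use of strand are not given in the sources used here. The deposited log2 fold changes and p-values of the authors were read only to compare counts: the authors' deposited table calls 2646 genes higher and 2940 lower, of which 5213 were also called here in the same direction.

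From these values, log2(value + 1) of genes with a mean of at least 10 was tested with limma 3.58.1 (R 4.3.3; intensity trend, robust, statmod 1.5.0), with Benjamini-Hochberg adjustment over all genes tested; all adjusted p-values are from it, and fold changes are on the log2(value + 1) scale, which understates those of low genes. The difference between operations was tested on all 12 samples, each group from its own diet table. Alternatives used edgeR 4.0.16, DESeq2 1.42.0 and limma-voom on recovered reads, other scalings and filters, GC and length trends removed (splines with 4 degrees of freedom; GENCODE M21), a replicate block, and each library left out. On simulated data 82% of 2-fold and 96% of 4-fold changes were recovered in the TAC comparison (15754 genes, 6.8% of calls false), and 49% and 94% for the difference (15102 genes, 3.4% of calls false). The simulated data held far fewer changed genes than were called here, no GC or length trend and no library standing apart. These rates therefore need not hold for the real data.

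Named genes were the 10 largest rises and falls among called genes with a mean of at least 100 and no overlap, up to 4 called members per list with the smallest p, genes chosen for known roles, and the 8 smallest p of the difference; some genes under this rule are not named, and those outside it are said to be. The members and lists were chosen with earlier results of these data known. Promoters are RefSeq windows of GRCm38.p6, matched by symbol for 130 of 165 named genes. Plots were drawn with matplotlib 3.10.9 under Python 3.11.15.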

Additional observations from a re-analysis of the deposited data

Results flagged for a closer look

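The results here are those whose diet effect differed between the 2 operations by the test of the difference itself (limma, after TAC minus after sham, adjusted p under 0.05). Over all genes tested 1329 passed. Of the genes named above 59 passed, 33 with a higher and 26 with a lower value after TAC, and 22 of the 59 passed with each of the 12 libraries left out in turn. These were Mybpc2, Col4a1, Col4a2, Fbn1, Col5a3, Tgfbr1, Rsad2, Ifit2, Mlycd, Esrra, Cebpb, Map1lc3a, Vegfb, Pdgfra, Smtn, Stard10 and the other 6 genes with the smallest p-values. Rcan1 and Rplp2 passed in only 1 of these 12 fits, and Idh2, Npas2 and Herpud1 in 2. Cenpf, Hsd17b10, Slc7a5, Slc7a6 and Igf1 passed in 3. Values are differences of log2 fold changes, with the diet effect after TAC given first where both are given.

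Among load-response and contractile genes the difference was -0.95 for Rcan1, -1.06 for Mybpc2, 0.99 for Tnni3, 0.86 for Myl2, 0.69 for Kcnj12, 1.03 for Kcnh2 and 0.78 for Smtn. Matrix and fibroblast genes were all lower: Col4a1 at -1.27, Col4a2 at -1.06, Fbn1 at -1.48, Col5a3 at -0.97, Adamts4 at -1.92, Tgfbr1 at -1.04, Pdgfra at -0.71, Lamc1 at -0.74 and the pericyte marker Mcam at -0.63. Fbn1 had a diet effect of -2.25 after TAC and -0.77 after sham.

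Immune and proliferation genes with a called difference were Rsad2 (-1.15), Ifit2 (-1.0), Il17d (1.23), C1s1 (-0.47), Kif11 (-1.89) and Cenpf (0.86). Oxidation genes were all higher: Slc27a1 (0.74), Mlycd (1.05), Esrra (0.73), Idh2 (0.64), Ndufv1 (0.78), Idh3g (0.75), Cox6a2 (0.82), Slc2a4 (0.68) and Ldhb (0.79). The BCAA degradation genes with a called difference were higher as well, with Bcat2 at 0.55, Bckdha at 0.68, Bckdk at 0.50, Mccc2 at 0.67, Hsd17b10 at 0.68 and Auh at 0.58. By list, the difference was called for 3 of 10 genes of transamination and the dehydrogenase complex. It was called for 4 of 10 in the leucine and isoleucine branch and 1 of 11 in the valine branch. Ppm1k, at 0.79 after TAC and 0.77 after sham, had a difference of 0.02 (limma, adjusted p 0.97). Bcat2 had a diet effect of 0.64 after TAC and 0.09 after sham.

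The transporters Slc7a5 (-0.92), Slc7a6 (-0.49) and Slc38a4 (-0.61) were lower, and Akt1s1 (0.50) and Cebpb (2.20) higher. The remaining named genes were Npas2 (-1.18), Ireb2 (-0.59), Herpud1 (0.83), Map1lc3a (0.85), Gstp1 (0.57), Rplp2 (0.57), Rpl27 (0.73), Igf1 (-1.17), Igfbp5 (-0.78), Vegfb (1.03), Stard10 (1.66), Plekhg1 (-1.16), Fam102b (-1.12), Prrg3 (-1.30), Creb5 (-1.25), Aes (1.11) and Rap1gap (1.25).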

How the results depend on the processing

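The count of genes changed by the diet after TAC was 4640 to 5591 under 11 alternatives: DESeq2 (5591), edgeR (5458) and limma-voom (5453) on recovered reads, TMM scaling (5406), equal library totals (5261, 1461 higher and 3800 lower), a pseudocount of 10 (5455), no filter (5439), a mean of at least 100 (4708), all 12 samples in 1 fit (4819), GC and length trends removed (4709, 2781 higher and 1928 lower) and the replicate block (4640). With 1 library left out it was 3369 to 5269. The count of genes whose diet effect differed between TAC and sham was 593 with GC and length trends removed (454 higher and 139 lower), 1856 on equal library totals (390 higher and 1466 lower) and 240 to 1774 with 1 library left out; the cause was not tested.

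Same-numbered BCAA-free and control diet TAC libraries had correlations of 0.038, -0.049 and -0.256 of their deviations from the group means. Differently numbered libraries had -0.259 to 0.387. With 3 libraries a group, these values cannot tell whether the numbers pair the hearts. With the replicate block 4640 genes were called after TAC and 1600 for the difference, and Asns, Cthrc1, Postn and Col1a1 lost their calls.

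No named gene turned its direction under these alternatives in a called result. Besides the losses given with the results, Cthrc1 was at an adjusted p of 0.070 with edgeR, 0.17 with limma-voom and 0.063 with a pseudocount of 10, and Col1a1 at 0.051 with edgeR. In the fit of all 12 samples Nfil3 (0.10), Eif4ebp1 (0.070), Ccl9 (0.097) and Nr4a3 (0.089) did not pass. Depth limits low genes: at 24861212 reads or more per TAC library, genes with a mean under 10 were not tested. The sham libraries, which enter the test of the difference, held 13847107 to 50144754 recovered reads. The fewest were in BCAA-free sham replicate 2.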
